A study of Nicotiana tabacum with 2 samples.

Results

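The wide accessible regions that were called only in tobacco callus on low naphthaleneacetic acid (NAA) numbered 2831, out of 39523 regions in the 0.1 mg/L NAA list and 71353 regions in both lists of the study. A region belonged to this set when it lay on 1 of the 19 chromosomes, was at least 450 bp wide in the 0.1 mg/L list, and had no region of the 0.5 mg/L list within 1000 bp of either edge. The regions of this set are called 0.1-only wide regions here. They were set against the 4997 regions of at least 450 bp in the same list that overlapped a 0.5 mg/L region by at least 1 bp, called shared wide regions. The members were chosen by their called width in the 0.1 mg/L list and by the lack of a call in the 0.5 mg/L list, so neither is a finding, and the counts and strengths of the set are descriptions with no test.

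Chromatin accessibility was measured by ATAC-seq, in which the transposase Tn5 cuts exposed DNA and inserts sequencing adapters. The 0.5 mg/L NAA and the 0.1 mg/L NAA callus gave 1 library each, from harvested explants, and both treatments used the same synthetic auxin. The study asked whether more auxin changes chromatin accessibility in regenerating tissue. Culture time is labelled as 3 weeks for 0.5 mg/L NAA and 2 weeks for 0.1 mg/L NAA, while the study's methods give a single time, so by the labels concentration and culture time cannot be told apart. Fixation with formaldehyde and sonication are listed in the labels beside the Tn5 step. The labels name N. tabacum, whereas the study names its seeds as N. benthamiana, and the coordinates are those of the N. benthamiana assembly Niben261. With 1 library per concentration there was no spread between samples and no test of a difference between concentrations. Intervals are 95% intervals that cover counting error over regions only.

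Open chromatin in plants lies mostly at promoters and at more distant regulatory DNA, where transcription factors keep nucleosomes away. A wide region in such a list can be a single broad opening or several openings side by side. Auxin drives the formation and growth of callus, a mass of dedifferentiated cells, and with cytokinin it sets whether callus goes on to form shoots. A region called in only 1 of a pair of libraries passed the caller's threshold there and not in the other, and it need not be closed where it was not called.

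The libraries had unequal background pileups, which bears on every value below. The background pileup, the number of fragments stacked over an average base, was 0.172 in the 0.5 mg/L library and 0.747 in the 0.1 mg/L library. Summit pileup, the number of fragments at the highest point of a region, began at 3 among the 0.5 mg/L regions and at 5 among the 0.1 mg/L regions. The 0.5 mg/L library is called the shallower one here for its lower background pileup, although depth in reads is unknown. The part that this difference plays in the absence of a 0.5 mg/L region was not tested.

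Of the 8054 wide regions on chromosomes, the 0.1-only regions made up 35.2% (34.1 to 36.2%), the shared regions 62.0% (61.0 to 63.1%), and another 226 regions (2.81%) lay within 1000 bp of a 0.5 mg/L region without overlap. Over all 38543 regions of the 0.1 mg/L list on chromosomes, 21413 (55.6%) had no 0.5 mg/L region within 1000 bp, and of the 30489 regions under 450 bp this held for 18582 (60.9%). The share of 0.1-only regions was 43.6% (41.6 to 45.7%) among regions of 450 bp to under 500 bp and 21.1% (18.2 to 24.2%) among those of 800 bp or more. The 0.1-only wide regions covered 1.61 Mb, 11.6% of the 13.9 Mb covered by the list on chromosomes. Unplaced scaffolds held another 285 wide regions, 116 of them with no 0.5 mg/L region within 1000 bp (40.7%, 34.9 to 46.7%), which were left out.

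The 0.1-only wide regions were weaker than the shared ones in the library that called both. Their median summit pileup was 9 fragments (quartiles 8 and 12, range 5 to 31), against 15 fragments (quartiles 12 and 20, range 5 to 1172) in shared wide regions. The pileups overlapped over most of the range of the 0.1-only set. The fold over local background, a ratio that the caller computes with 1 added to pileup and background, had a median of 4.83 in 0.1-only and 6.08 in shared wide regions. The median −log10 q-value was 3.85 in 0.1-only and 7.05 in shared wide regions, and placed the typical 0.1-only region at percentile 51.1 of the list and the typical shared one at percentile 80.8. Of the 0.1-only wide regions, 45 (1.59%) had a summit pileup of at least 20 fragments, against 1284 (25.7%) of the shared ones. At the other end, 601 (21.2%) of the 0.1-only and 111 (2.22%) of the shared regions had 7 fragments or fewer.

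The share of 0.1-only regions fell steadily as the summit grew. At summit pileups of 5 to 7 fragments, 81.5% of the 737 wide regions were 0.1-only (78.6 to 84.3%). At 8 to 10 fragments the share was 59.4%, at 11 to 14 fragments 33.2%, at 15 to 19 fragments 14.8%, and at 20 or more 3.36% (2.46 to 4.46%). The shared wide regions show what a partner looked like in the shallower library where one was called. At 8 to 10 fragments 728 of the 1993 wide regions had a partner. Places with no call are missing from the partner values. Where the 0.1 mg/L summit stood at 8 to 10 fragments, the 0.5 mg/L summit of the partner had a median of 6 fragments (quartiles 5 and 8), against a median of 7 over that whole list, and the partner was 260 bp wide in the median. Where it stood at 20 or more, the partner had a median of 17 fragments (quartiles 13 and 22) and 397.5 bp. The median partner over all shared wide regions was 323 bp wide at 0.5 mg/L, while the regions themselves had a median of 570 bp at 0.1 mg/L. The width limit was set on the 0.1 mg/L side only, so this order is set in part by the choice. The narrowest called region also differed, 207 bp in the 0.1 mg/L list and 150 bp in the 0.5 mg/L list.

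**Figure D1:**
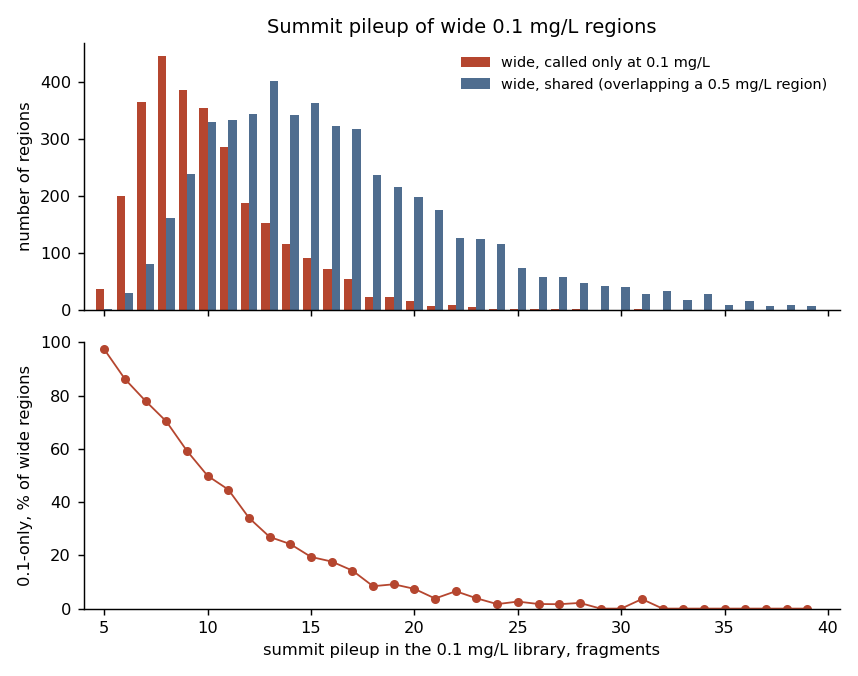
Summit pileup in the 0.1 mg/L library, in fragments, for wide 0.1-only and wide shared regions up to 40 fragments. The upper panel counts regions at each pileup and the lower panel gives the 0.1-only regions as a percent of all wide regions at that pileup, which falls from above 80% at the lowest pileups to a few percent above 20 fragments.

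The sets also differed in shape and in local background. The 0.1-only wide regions had a median width of 531 bp (quartiles 482 and 616, widest 1284 bp), against 570 bp (quartiles 501 and 684, widest 1855 bp) for shared ones. The summit lay in the middle part of the region, from 25 to 75% of its width, in 54.0% of the 0.1-only (52.2 to 55.9%) and in 64.4% of the shared wide regions (63.0 to 65.7%), a difference of −10.3 percentage points (−12.6 to −8.07). Within summit pileups of 10 to 19 fragments these values were 56.9% in 0.1-only and 61.6% in shared regions, a difference of −4.73 points (−7.86 to −1.61). The local background had a median of 1.09 fragments in 0.1-only and 1.61 fragments in shared wide regions. It stood at the genome-wide level, the lowest the caller used, in 522 (18.4%) of the 0.1-only and in 247 (4.94%) of the shared wide regions.

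The strongest 0.1-only wide regions stood well inside the range of the shared ones. The first by q-value was on chromosome 19 at 78884458 to 78885021, with a summit pileup of 28 fragments over a background of 0.747 and a fold of 16.6, and its nearest 0.5 mg/L region lay 91461 bp away. Next came a region on chromosome 11 at 138591938 to 138592469 with 26 fragments and a fold of 10.1, located 115672 bp from a 0.5 mg/L region. The third, on chromosome 3 at 38003669 to 38004376, had 23 fragments and a fold of 10.996, located 58013 bp from one. Regions on chromosome 7 at 110850629 to 110851318 and on chromosome 12 at 39005917 to 39006408 had 21 and 22 fragments. These 5 regions had −log10 q-values between 15.7 and 30.05. For comparison, the strongest shared wide region, on chromosome 1 at 70239509 to 70240216, had 1034 fragments over a local background of 50.6 and a −log10 q-value of 925.

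The widest 0.1-only regions were not the strongest. The widest was on chromosome 9 at 94109505 to 94110788, 1284 bp, with 9 fragments at its summit and a fold of 4.48. The next, on chromosome 18 at 11605148 to 11606422, was 1275 bp wide with 17 fragments and lay 5974 bp from a 0.5 mg/L region. The third, on chromosome 7 at 78372425 to 78373658, was 1234 bp wide with 10 fragments and lay 128261 bp from one. Widths of at least 800 bp were found in 154 (5.44%) of the 0.1-only and in 566 (11.3%) of the shared wide regions.

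All 19 chromosomes carried 0.1-only wide regions. There were between 127 on chromosome 11 and 187 on chromosome 6, with a median of 148 per chromosome. Over the summed span of 2937 Mb, taken from the first base to the last region of either list on each chromosome, this was 0.964 per Mb for 0.1-only and 1.70 per Mb for shared wide regions. Chromosome 6 had the highest density, 1.26 per Mb (1.08 to 1.45), and chromosome 3 the lowest, 0.793 per Mb (0.673 to 0.928), a ratio of 1.58. The interval left out the value over all chromosomes on 3 of the 19, chromosome 6 above it and chromosomes 3 and 12 below it. The shared wide regions ranged from 1.49 per Mb on chromosome 4 to 2.14 per Mb on chromosome 6, a ratio of 1.44.

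Chromosomes dense in other regions tended to be dense in 0.1-only wide regions. Across the 19 chromosomes the density of 0.1-only wide regions had a Pearson's r of 0.698 and a Spearman's rho of 0.604 with that of shared wide regions, and an r of 0.779 and a rho of 0.742 with all 0.1 mg/L regions. All these points come from the same library, and the last pair counts the 0.1-only regions on both sides. The share of 0.1-only regions was highest on chromosome 2, 39.5% (34.6 to 44.5%, 156 of 395), and lowest on chromosome 7, 31.7% (27.6 to 36.1%). The interval held the overall share of 35.2% on each of the 19 chromosomes.

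**Figure D2:**
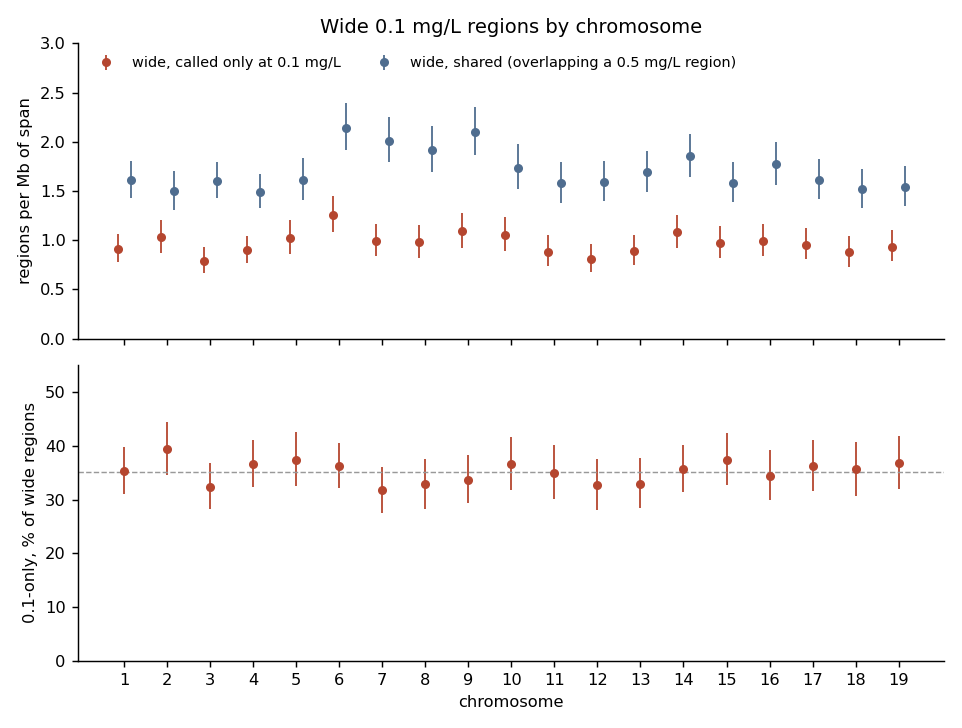
Wide 0.1 mg/L regions on each of the 19 chromosomes, as number per Mb of span for 0.1-only and shared regions (upper panel, exact Poisson 95% intervals) and as the percent of wide regions that were 0.1-only (lower panel, exact Clopper-Pearson 95% intervals; the dashed line is the 35.2% over all chromosomes). Density peaks on chromosome 6 in both sets, while the percent stays between 31.7 and 39.5%.

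Along the chromosomes the 0.1-only wide regions were spread over the whole length, with the highest numbers in the parts at both ends. When the span of each chromosome was cut in 10 equal parts, part 1 held 338 of them (11.9%), part 10 held 359 (12.7%), and the lowest number, 237 (8.37%), fell in part 4. Parts 1 and 10 together held 24.6% of the 0.1-only (23.0 to 26.3%) and 23.3% of the shared wide regions (22.1 to 24.5%), a difference of 1.35 percentage points whose interval spanned zero (−0.61 to 3.33). All 0.1 mg/L regions had 22.4% there. The 0.1-only percent in these parts exceeded the shared percent on 11 of the 19 chromosomes. The difference ran from 11.2 points on chromosome 17 to −11.9 points on chromosome 9.

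In the middle of the chromosomes the sets parted. Parts 5 and 6 held 589 of the 0.1-only wide regions (20.8%, 19.3 to 22.3%) and 891 of the shared ones (17.8%, 16.8 to 18.9%), a difference of 2.97 percentage points (1.16 to 4.83), with all 0.1 mg/L regions in between at 19.2%. In part 5 alone, 41.1% of the wide regions were 0.1-only (37.5 to 44.8%), the highest of the 10 parts, and in part 4 it was 32.0% (28.6 to 35.5%), the lowest. The 0.1-only percent in parts 5 and 6 exceeded the shared percent on 16 of the 19 chromosomes, with a difference of 11.5 points on chromosome 18 at one end and −3.63 points on chromosome 17 at the other.

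Because the sets differed in strength, they were also compared within a band of summit pileups. Within 10 to 19 fragments, 1355 0.1-only and 3203 shared wide regions were left, with median pileups of 12 fragments in the 0.1-only and 14 fragments in the shared regions, so strength was matched only in part. Parts 5 and 6 then held 20.7% of the 0.1-only and 18.5% of the shared regions, a difference of 2.29 points with an interval that spanned zero (−0.21 to 4.88). Parts 1 and 10 held 27.2% of the 0.1-only (24.8 to 29.6%) and 23.1% of the shared regions (21.7 to 24.6%), a difference of 4.06 points (1.31 to 6.87). The difference in the middle was smaller and that at the ends larger than over all strengths. With both lists limited to q-values under 1e-05, the difference was 0.725 points in parts 5 and 6 (−1.67 to 3.21) and 5.05 points in parts 1 and 10 (2.36 to 7.81).

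**Figure D3:**
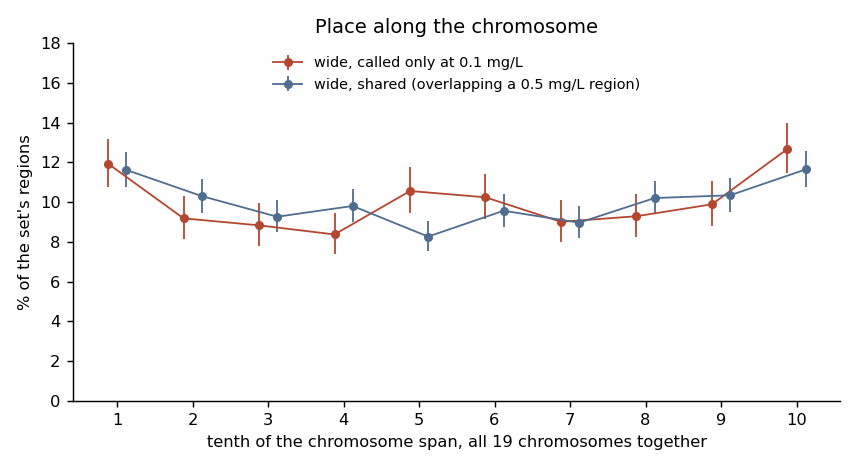
Percent of each set's regions in each of 10 equal parts of the chromosome span, all 19 chromosomes together, for wide 0.1-only and wide shared regions, with exact Clopper-Pearson 95% intervals. Both sets are highest in parts 1 and 10, and in part 5 the 0.1-only set stands at 10.6% and the shared set at 8.26%.

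The 0.1-only wide regions mostly stood singly, although the gaps between them depend on how many the set holds. The gap to the nearest other one had a median of 343367 bp (quartiles 133055 and 721377, range 238 to 5092614 bp). Only 88 of the 2831 (3.11%) had another within 10 kb, in 44 pairs and no larger run, against 311 (6.22%) of the more numerous shared wide regions. The pair that spanned the shortest length lay on chromosome 8, at 94.6% of its span, at 130427472 to 130427961 and 130428329 to 130428814, 367 bp apart, with summit pileups of 10 and 13 fragments and the nearest 0.5 mg/L region 147069 bp away.

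The median gap to any other 0.1 mg/L region was 20208 bp (19280 to 21349) for 0.1-only and 18195 bp (17344 to 18991) for shared wide regions, a ratio of 1.11. Another 0.1 mg/L region lay within 10 kb of 28.2% of the 0.1-only and of 30.5% of the shared wide regions, and within 100 kb of 92.1% of the 0.1-only and of 93.9% of the shared ones. Within summit pileups of 10 to 19 fragments the order turned, with 17402 bp (16068 to 19217) for 0.1-only and 18717 bp (17630 to 19533) for shared regions, and the intervals overlapped.

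The distance to the nearest 0.5 mg/L region had a median of 25889 bp (24096 to 27654) for the 0.1-only wide regions, with quartiles of 10920 and 62484 bp. Its lower end, 1001 bp, is set by the rule, and its upper end was 837224 bp. The median depended on the q-value limit, and was 33602 bp with both lists limited to q-values under 0.001 and 45681 bp under 1e-05, where fewer 0.5 mg/L regions were left. A 0.5 mg/L region lay within 5 kb of 240 of them (8.48%), within 20 kb of 1195 (42.2%) and within 100 kb of 2444 (86.3%), and 387 (13.7%) were farther than 100 kb from any. For shared wide regions the matching measure is the distance to the next 0.5 mg/L region that does not overlap. Among the 4781 of these with such a distance over 1000 bp the median was 23041 bp (22082 to 24031), and 89.5% lay within 100 kb. The median of the 0.1-only set was 1.12 times that of the shared set. Within summit pileups of 10 to 19 fragments it was 22078 bp (20135 to 24001) for 0.1-only and 23285 bp (22086 to 24641) for shared regions, a ratio of 0.948, and the intervals overlapped.

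**Figure D4:**
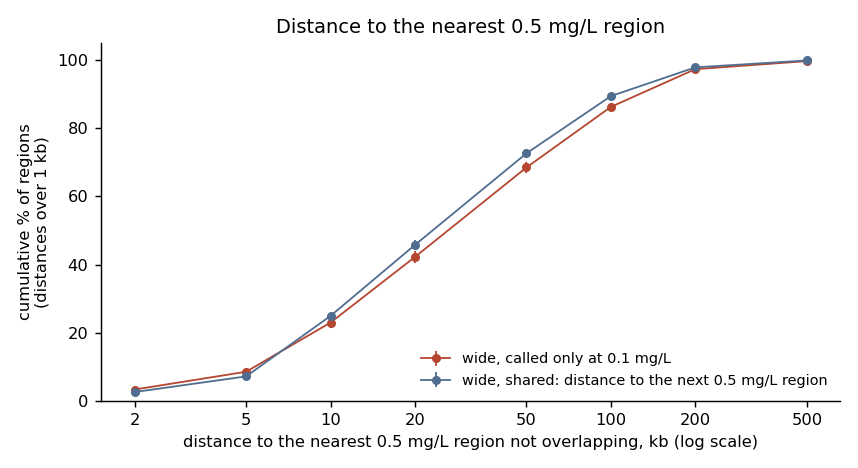
Cumulative percent of regions with a 0.5 mg/L region within a given distance (kb, log scale, distances over 1 kb only), for wide 0.1-only regions and for wide shared regions, where the overlapping 0.5 mg/L region is left aside, with exact Clopper-Pearson 95% intervals. The curves run close together, with 68.5% of the 0.1-only and 72.7% of the shared regions within 50 kb.

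The most remote 0.1-only wide regions all stood on chromosome 4. The first, at 125633273 to 125633803, was 837224 bp from the nearest 0.5 mg/L region, had 7 fragments at its summit, and sat at the genome-wide background. The other two, at 125020377 to 125020849 and 125018374 to 125018826, lay 786587 and 784584 bp from one, with 9 and 10 fragments, and only 1550 bp from each other. All 3 lay in the same stretch of 2237238 bp without a 0.5 mg/L region, the longest that held any of the set, the first at 66.2% of the span and the pair at 65.9%.

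Stretches without a 0.5 mg/L region seldom held more than 1 of the set, a count that depends on the size of the set. The stretch between the 0.5 mg/L regions to the left and to the right of a 0.1-only wide region had a median length of 150303 bp, against 54124 bp over all 31234 stretches between neighbouring 0.5 mg/L regions. Longer stretches have more room, so this order is set in part by the choice. The 2826 regions with a 0.5 mg/L region on both sides fell in 2579 stretches, 2353 with 1, 206 with 2, 19 with 3 and 1 with 4 of them. In 947 cases (33.5%) the stretch held no other 0.1 mg/L region of any width, and the median number of others was 1.

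The few 0.1-only wide regions near a 0.5 mg/L region were taller. Those over 1 and up to 5 kb away had a median summit pileup of 12 fragments (11 to 12), against 10 (9 to 10) between 5 and 20 kb and 9 beyond that, and their local background had a median of 1.65 fragments, against 1.1 between 5 and 20 kb and 0.985 beyond 100 kb. Their median width was 517.5 bp (500 to 538), against 539 bp (530 to 548) between 5 and 20 kb.

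Around the 0.1-only wide regions the other regions left a gap at a few kb. Per Mb of flank there were 3.89 other 0.1 mg/L regions at 2 to 4 kb (2.82 to 5.22, 44 regions) and 24.9 at 6 to 8 kb (22.1 to 28.0, 282 regions), against 13.1 per Mb over the chromosomes. The 0.5 mg/L regions showed the same gap, with 7.33 per Mb at 2 to 4 kb (5.84 to 9.09) and 18.2 per Mb at 6 to 8 kb (15.8 to 20.9), against 10.6 per Mb over the chromosomes, although no 0.5 mg/L region stood at the centre. Shared wide regions had the gap too, with 5.50 per Mb of 0.1 mg/L regions at 2 to 4 kb and 25.4 per Mb at 6 to 8 kb, so it was not particular to the 0.1-only set. Local background moved with the distance of the neighbour. It had a median of 1.47 fragments in the 169 0.1-only wide regions whose nearest 0.1 mg/L neighbour lay over 1 and up to 5 kb away, 1.1 in the 529 between 5 and 10 kb, and 0.996 in the 653 beyond 50 kb. Its part in the gap was not tested.

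**Figure D5:**
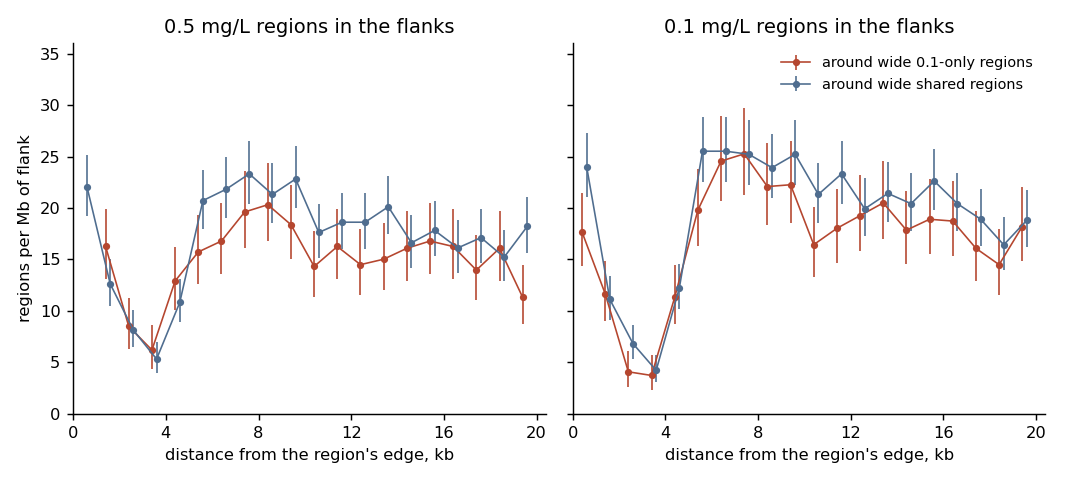
Density of other regions, in regions per Mb of flank, by distance from the region's edge (kb, 1 kb bins) around wide 0.1-only and wide shared regions, with exact Poisson 95% intervals. The 0.5 mg/L regions are in the left panel, where the first bin of the 0.1-only set, empty by the rule, is not drawn, and the 0.1 mg/L regions in the right panel; all curves dip at 2 to 4 kb.

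The other 0.1 mg/L regions nearby were themselves shared a little less often around the 0.1-only set. Of the 8385 neighbours between 1 and 100 kb, 42.1% overlapped a 0.5 mg/L region around 0.1-only wide regions, against 44.2% of 16169 around shared wide regions, a difference of −2.09 percentage points (−3.39 to −0.784). A neighbour of several regions was counted for each, so the interval is too narrow. Between 1 and 10 kb, a range chosen after the values had been seen, the numbers were 349 of 819 around 0.1-only and 798 of 1596 around shared wide regions, a difference of −7.39 points (−11.5 to −3.19). With 0.1-only wide regions left out of the neighbours, it was −7.14 points (−11.5 to −2.75). The rule bars 0.5 mg/L regions within 1000 bp of the 0.1-only set, which can lower its value just beyond that distance. Without a distance limit the difference was −6.24 points (−10.3 to −2.15). Within summit pileups of 10 to 19 fragments the difference from 1 to 10 kb was −7.04 points (−12.6 to −1.40), and that from 1 to 100 kb was −0.917 points (−2.68 to 0.848). The interval of the difference from 1 to 10 kb spanned zero for widths of at least 600 bp (−2.95 points, −10.0 to 4.20) and at q-values under 1e-05 (−7.58 points, −16.2 to 0.913).

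The limits of the set cut through a continuous range. There were 24 0.1-only regions of exactly 450 bp, and as many regions 1 bp narrower without a 0.5 mg/L region within 1000 bp. Those first by position inside the limit, on chromosomes 2 at 58307108 and 138950606 and 4 at 71349075, had summit pileups of 16, 7 and 9 fragments. Those just outside it, on chromosomes 1 at 13669490 and 121887007 and 3 at 2334708, had 8, 6 and 5. At the distance limit, the nearest members lay 1001, 1013 and 1014 bp from a 0.5 mg/L region with 13, 14 and 16 fragments, and the nearest regions outside lay 995, 994 and 994 bp from one with 12, 12 and 27 fragments. The last 100 bp inside the excluded range held 13 wide regions, and the next 100 bp beyond it held 15 members.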

How the data were processed

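ATAC-seq regions of 1 library from 0.5 mg/L NAA and 1 from 0.1 mg/L NAA were used, grouped by title. The authors aligned reads with BWA to N. benthamiana and called regions per library with MACS2 2.2.7.1 at q below 0.05; the submitters' processing notes also name Trimmomatic 0.39. Deposited were positions, a score (close to 10 times the −log10 q-value), a fold ratio, −log10 p-values, −log10 q-values and summits. Strength values served only as descriptions. Summit pileup and local background were solved from the deposited fold and −log10 p-value to a relative tolerance of 5e-05; all regions had a solution, and 11 in the 0.5 mg/L and 5 in the 0.1 mg/L list more than 1, of which the closest was kept. Depth in reads is unknown. Shares have exact Clopper-Pearson intervals, densities exact Poisson, differences Newcombe and medians order-statistic intervals (scipy 1.17.1). Computations were tested on simulated lists. Coordinates count from 1. Named regions are the 5 strongest, 3 widest and 3 farthest members, the densest run, the strongest shared region, and those at the limits. The members, lists and limits were chosen with earlier results of these data known. Gene features and sequences were not analysed here. Alternatives of width, distance, q-value, fold, merging, scaffolds and bands of width and pileup were tried.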

Additional observations from a re-analysis of the deposited data

How the results depend on the processing

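A total of 12 results were recomputed under 12 alternatives, 1 of them, the joint band of width and summit pileup, chosen after the data had been seen. No paired analysis was possible because only 1 library represented either concentration, so leaving out a library was not run either. Of 134 values, 90 stayed inside the interval of the reported value or, for the number of regions, near it. Another 39 moved outside it. The other 5, all ratios of medians, fell on the other side of 1, with intervals that held 1. Intervals of such ratios cover the counting error of the 0.1-only median only. Merging 0.1 mg/L lines within 100 bp left every value unchanged, so its values are among the 90 without testing anything. Unless its construction shows it, the cause of a change was not tested.

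Widths of at least 400 bp gave 4331 members (38.2% of wide regions). Widths of at least 600 bp gave 818 (27.4%), a ratio of highest to lowest chromosome density of 2.03 and a gap ratio to other 0.1 mg/L regions of 1.01. Without a distance limit the share was 38.0%, and with a limit of 5000 bp it was 32.2%. At q-values under 0.001 the pileup ratio was 0.688. At q-values under 1e-05 there were 1459 members (32.4%), the pileup ratio was 0.778, the excess in parts 5 and 6 was 0.725 points, the gap ratio 1.05, the distance ratio beyond 1000 bp 0.981 and the neighbour difference from 1 to 100 kb −0.403 points. Widths from 450 bp to under 550 bp left 1595 members (40.9%). Summit pileups of 10 to 19 fragments left 1355 (28.9%), with a pileup ratio of 0.857, a gap ratio of 0.930 and a distance ratio of 0.948. Both bands together left 706 (32.4%), with a pileup ratio of 0.857, a gap ratio of 0.998, a distance ratio of 0.908 and a neighbour difference of −0.378 points.

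Limits and bands change the number by construction. Limits on q-value or fold cut the 0.5 mg/L list too, so regions with a weaker call there could join the set. The order of the sets in gap and in distance did not hold within the pileup band, where median pileups still differed, and the order in distance did not hold at q-values under 1e-05. The difference in parts 1 and 10 was 2.204 points (0.0822 to 4.36) at q-values under 0.001 and 4.93 points (1.05 to 8.94) in both bands together. The neighbour difference from 1 to 10 kb ranged from −13.6 points, at the limit of 5000 bp, to −2.95 points, and was −4.60 points in both bands together (−12.8 to 3.71). The limit of 5000 bp sets part of its own value, because neighbours of members within that distance could hardly overlap a 0.5 mg/L region. The median distance of members to a 0.5 mg/L region ranged from 21814 to 45681 bp. The 0.5 mg/L library had the lower background pileup, and the absence of a call there does not show closed chromatin.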
